A study of Mus musculus with 6 samples.

Results

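The ribosome biogenesis and nucleolar genes are 36 genes given by name, grouped here into 6 roles: scaffold, chaperone and helicase proteins of the nucleolus, proteins of the box C/D and of the box H/ACA small nucleolar ribonucleoproteins (snoRNPs), RNA polymerase I with its factors, and assembly factors of the small and of the large ribosomal subunit. Symbols were matched to the Ensembl identifiers of the count table, which lists 26128 genes. Of the members, 35 had a row and Wdr74 was not analysed here. All 35 passed the filter on low counts, as did 14671 genes in all. The rule names the members and uses no measured value, although the list was drawn up with earlier results of these data known.

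RNA was sequenced from converted double negative T (DNT) cells in 3 Control and 3 IL-33 libraries. The cells were converted in vitro from C57BL/6 mouse CD4+ T cells, which had been kept with mature DBA/2 dendritic cells and IL-2, and were then sorted as CD3+NK1.1-CD4-CD8-. Both groups then received anti-CD3/CD28 beads for 48 h, alone (Control) or with IL-33 at 50 ng/ml (IL-33), so that every value below compares stimulated cells with and without the cytokine. The cells are thus a product of culture rather than DNT cells taken from an animal, and the sources do not say whether the replicates were separate mice or cultures, so the p-values measure only the spread between these libraries, which may be technical.

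The libraries held 20256342 to 22336050 counts, and levels are given as counts per 1000000 counts (CPM) of the TMM-scaled total over the genes tested, with a count of 3 corresponding to 0.135 to 0.148 CPM. The 10 T cell markers summed to 2425 to 2590 CPM in Control and to 2496 to 2602 CPM in IL-33. By the test used below, 3 of them (Cd2, Cd5 and Lck) were lower with IL-33 and 1 (Cd3g) was higher. Cd8a mRNA was at 535 to 561 CPM in Control and at 393 to 410 CPM in IL-33 although the sort took cells without surface CD8, whereas Cd4 lay between 0.23 and 1.1 CPM. Of these coreceptors, Cd8a and Cd4 were lower and Cd8b1 was higher with IL-33, from 9.68 ± 1.65 to 16.3 ± 2.07 CPM (SD, n = 3 each, adjusted p = 6.2e-08, edgeR). Markers of dendritic and myeloid cells summed to 75.0 to 78.1 CPM in Control and to 45.4 to 51.1 CPM in IL-33 (2 of the 5 tested were lower and none was higher), those of mast cells and basophils to 14.9 to 20.4 and to 10.2 to 13.6 CPM, those of NK cells to 425 to 432 and to 394 to 413 CPM, those of B cells to 15.4 to 16.7 and to 16.4 to 21.6 CPM, and those of erythroid cells to at most 0.456 CPM. Most of the dendritic and myeloid sum was Itgax, with means of 54.6 CPM in Control and 26.0 CPM in IL-33. Cd74 was the other lower marker, Xcr1 (11.5 and 12.4 CPM) did not pass, and Flt3, H2-Aa, Csf1r, Lyz2 and Adgre1 had means of at most 0.379 CPM. Most of the NK cell sum was Eomes (373 and 358 CPM), which did not pass. Klrb1c was lower, and Ncr1 and Klra8 had means of at most 0.152 CPM. No marker with a row was at 0 in all libraries, and the part of these markers in the results below was not tested. In such bulk RNA, fewer cells of a type and less RNA per cell cannot be told apart.

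Ribosomes are built in the nucleolus, where RNA polymerase I transcribes the precursor of the ribosomal RNAs. Box C/D and box H/ACA snoRNPs then direct the methylation of riboses and the formation of pseudouridine on it, and assembly factors fold, cut and export the small and the large subunit. Activated T cells are known to raise ribosome production as they grow and divide, and many of these genes are known targets of the transcription factor Myc.

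Promoter windows, which run from 250 bases before to 50 bases after the start of the gene, were found in RefSeq (GRCm38.p6) for 31 of the 36 members. Rrp12, Fbl, Npm1, Bop1 and Rrs1 had no entry. Windows were searched on both strands for the E-box CACGTG, which Myc and related factors can bind. The windows of 4 members are printed in the direction of the gene, in lower case with the E-box in capitals. Utp20 and Tsr1 are shown because they fell with IL-33 and hold the E-box, Heatr1 because it fell and its window holds none, and Rrn3 because its window holds 2 and its level did not pass the test.
Utp20 (chr10:88826765-88827064, minus strand): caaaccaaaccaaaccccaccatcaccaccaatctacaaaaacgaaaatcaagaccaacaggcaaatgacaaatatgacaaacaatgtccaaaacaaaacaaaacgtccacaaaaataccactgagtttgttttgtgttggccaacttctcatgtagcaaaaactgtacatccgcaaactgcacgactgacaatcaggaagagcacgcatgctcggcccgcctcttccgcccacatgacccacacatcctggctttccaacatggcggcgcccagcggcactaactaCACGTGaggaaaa
Tsr1 (chr11:74897830-74898129, plus strand): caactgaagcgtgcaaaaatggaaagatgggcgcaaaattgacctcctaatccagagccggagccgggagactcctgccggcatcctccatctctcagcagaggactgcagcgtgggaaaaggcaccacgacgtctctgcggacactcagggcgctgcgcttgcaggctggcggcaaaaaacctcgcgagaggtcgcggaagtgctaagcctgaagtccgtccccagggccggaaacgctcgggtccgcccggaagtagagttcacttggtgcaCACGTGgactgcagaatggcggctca
Heatr1 (chr13:12395125-12395424, plus strand): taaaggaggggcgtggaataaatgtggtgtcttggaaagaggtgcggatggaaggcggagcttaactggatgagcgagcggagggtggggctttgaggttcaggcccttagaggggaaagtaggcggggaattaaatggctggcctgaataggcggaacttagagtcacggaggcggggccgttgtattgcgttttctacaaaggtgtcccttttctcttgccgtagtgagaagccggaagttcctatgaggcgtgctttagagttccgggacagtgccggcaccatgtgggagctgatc
Rrn3 (chr16:13780449-13780748, plus strand): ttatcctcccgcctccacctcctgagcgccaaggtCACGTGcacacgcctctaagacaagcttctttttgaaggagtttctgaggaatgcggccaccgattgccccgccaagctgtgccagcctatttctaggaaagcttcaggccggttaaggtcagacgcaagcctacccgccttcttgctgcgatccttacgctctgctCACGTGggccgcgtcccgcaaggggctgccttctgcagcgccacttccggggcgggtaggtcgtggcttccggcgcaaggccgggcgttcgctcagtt
Counted from the start as base 1, the E-box began at position 38 in Utp20 and at position 25 in Tsr1, and in Rrn3 it began 215 and 48 bases before the start. In all, 7 of the 31 members with a window (22.6%) held the E-box, against 11.6% of the 10068 tested genes with a window and 8.09% of all 27025 genes with one. The other 4 members with an E-box were Grwd1, Nop2, Pes1 and Wdr43. By the outcome of the comparison reported below, 2 of the 10 lower members with a window held it, as did 5 of the 19 members that passed in neither direction and 0 of 1 higher member. The ETS motif CCGGAAG was in 11 of the 31 members (35.5%) and in 20.6% of the tested genes with a window, and CCAAT, the motif of NF-Y, was in 8 members (25.8%) and in 42.6% of them. The motif of YY1 was in 1 member, Grwd1 (3.23%), and in 1.79% of the tested genes. These matches describe the letters of the windows, and a window without a match says nothing of whether a factor binds.

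The comparison of IL-33 with Control asks how the cytokine changed the mRNA levels of the machinery that makes ribosomes. Of the 35 members tested, 11 were lower with IL-33 and 2 were higher, the abundant nucleolar proteins Npm1 and Ncl, at an adjusted p under 0.05 (quasi-likelihood test of edgeR, adjusted after Benjamini and Hochberg over the whole table). The 11 lower members were Ubtf, Utp20, Heatr1, Bysl, Gnl3, Tsr1, Nolc1, Bop1, Nop56, Nop58 and Ddx21. They made up 31.4% of the members, while 13.9% of all genes tested were lower, and the 2 higher members made up 5.71%, while 13.6% of all genes were higher. Every member had a mean level of at least 11.9 CPM, and among the 8839 genes tested at 10 CPM or more the background was 19% lower and 18% higher. Under DESeq2, and without IL-33 replicate 2, the number of lower members was 7 in each case. Over all genes tested, 2037 were lower with all libraries kept and 1675 to 1834 when 1 library was left out.

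All of these differences were small. No member reached the 1.5-fold change that the study also required, which 4.87% of all genes tested passed together with the adjusted p. Among the 8839 genes at 10 CPM or more, where all members lay, only 203 passed both. The log2 fold changes of the members ran from -0.32 (Ubtf) to 0.34 (Npm1) with a median of -0.08, beside a median of -0.00063 over all genes tested. The 95% interval of every one of the 35 members lay within a 1.5-fold change in either direction, as did that of 93.8% of the genes at 10 CPM or more. The log2 fold change was negative for 22 members and positive for 13. The Control and IL-33 libraries did not overlap for 16 members, 12 lower and 4 higher with IL-33, where 19.5% and 19.4% of all genes tested did not overlap in these directions. This was 45.7% of the members, against 47.9% of the genes at 10 CPM or more.

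**Figure D1:**
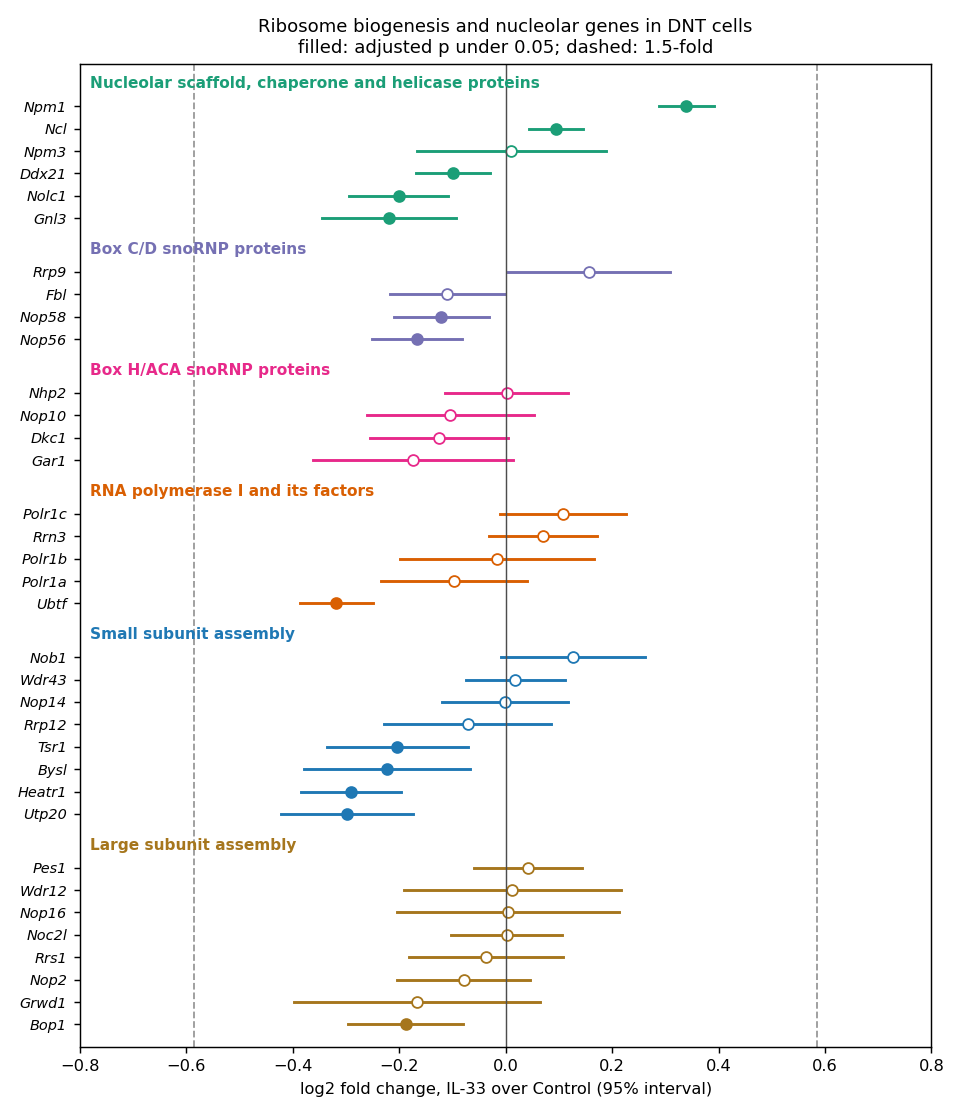
The log2 fold change of IL-33 over Control (x axis) is plotted for the 35 members tested (y axis, by role), with its 95% interval as a line; filled points passed an adjusted p of 0.05 and the dashed lines mark a 1.5-fold change. Npm1 (0.34) and Ncl (0.09) are the filled points to the right of 0, the 11 other filled points lie between -0.32 and -0.10, and no interval reaches a dashed line.

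The scaffold, chaperone and helicase proteins held both higher members and the highest levels. Npm1, nucleophosmin, a chaperone of histones and ribosomal proteins, was at 554, 574 and 565 CPM in the 3 Control libraries and at 705, 726 and 711 CPM in the 3 IL-33 libraries. All IL-33 libraries thus lay above all Control libraries, with means of 564 ± 9.64 and 714 ± 10.7 CPM (SD, n = 3 each). This was an increase of 26.5% (log2 fold change 0.34 ± 0.03 SE, adjusted p = 5.8e-21 edgeR). The annotation (GENCODE M21) holds 8 processed pseudogenes that share long, near-identical stretches with the Npm1 transcript, so reads can be split between them and the parent gene. The 5 copies with a row summed to 30.6 to 34.1 CPM in Control and to 42.5 to 47.3 CPM in IL-33, in all 6.05% of the Npm1 counts, and with them added the log2 ratio of the means was 0.35.

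Ncl, nucleolin, an RNA-binding protein that is among the most abundant of the nucleolus, was at 720, 754 and 750 CPM in Control and at 786, 795 and 795 CPM in IL-33. The groups did not overlap, and the difference was a smaller one than for Npm1, from 741 ± 18.5 to 792 ± 5.33 CPM (SD, n = 3 each) or 6.8% (log2 fold change 0.09 ± 0.03 SE, adjusted p = 0.0020, edgeR). Ncl took 24.4% of the summed CPM of the members in Control and 25.5% in IL-33, and the share of Npm1 went from 18.6% to 23.0%. Both calls held under all 14 alternatives.

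The other members of this group did not follow Npm1 and Ncl. Nolc1, which binds snoRNPs and RNA polymerase I, was at 79.3, 75.2 and 70.7 CPM in Control and at 66.4, 66.1 and 63.5 CPM in IL-33. Its mean fell from 75.1 ± 4.33 to 65.3 ± 1.62 CPM (SD, n = 3 each) without overlap of the groups (log2 fold change -0.20 ± 0.05 SE, adjusted p = 3.7e-04, edgeR). Gnl3, the GTPase nucleostemin, was at 44.0, 46.8 and 41.0 CPM in Control and at 40.1, 34.8 and 38.2 CPM in IL-33. It fell by 14.1% (log2 fold change -0.22 ± 0.06 SE, adjusted p = 0.0046, edgeR) with a narrow gap between the groups, and it did not pass without Control replicate 2 or without IL-33 replicate 2 (adjusted p = 0.069 and 0.075, edgeR). The helicase Ddx21, which acts on ribosomal RNA transcription and processing, went from 195 ± 4.99 to 182 ± 6.94 CPM (SD, n = 3 each), a fall of 6.6% (adjusted p = 0.026, edgeR). This call was lost under DESeq2 (adjusted p = 0.054), with upper quartile factors (0.051), and when the library Control 1 (0.14), IL-33 1 (0.060) or IL-33 2 (0.24) was left out. Npm3, a relative of Npm1, had means of 19.0 ± 1.39 and 19.2 ± 1.26 CPM (SD, n = 3 each), with an interval of the log2 fold change from -0.17 to 0.19.

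**Figure D2:**
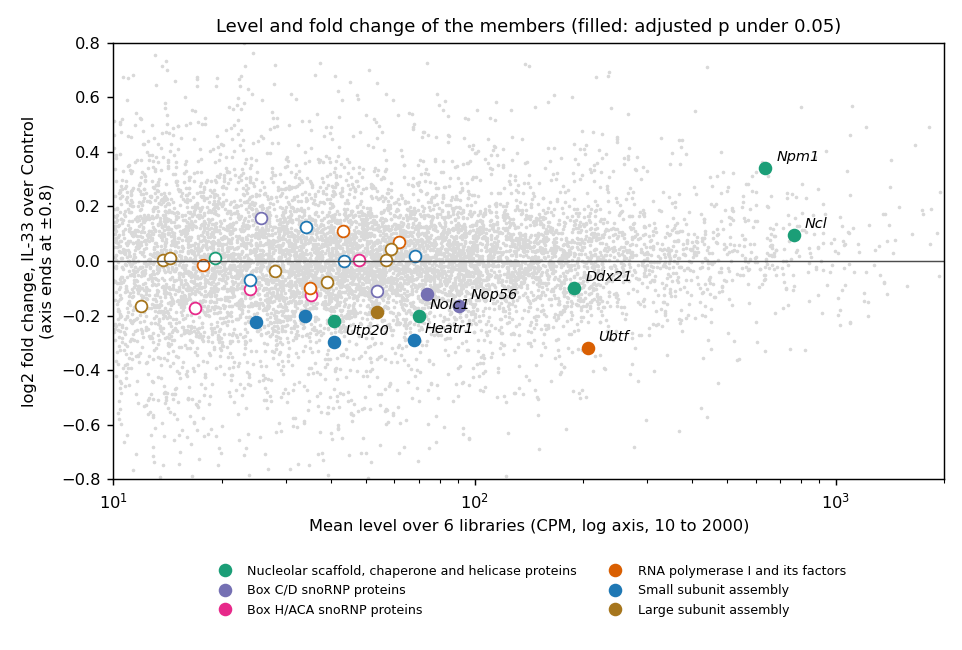
The mean level over the 6 libraries (x axis, CPM on a log scale) is plotted against the log2 fold change of IL-33 over Control (y axis) for the 35 members, coloured by role and filled where the adjusted p was under 0.05, over all genes tested at 10 CPM or more (grey; both axes are cut at the values they state). Npm1 and Ncl stand at the right above 0, and the member next in level, Ubtf, stands lowest on the y axis.

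Among the proteins of the box C/D snoRNPs, which carry the methylation of riboses, the paralogous core proteins Nop56 and Nop58 fell. Nop56 was at 97.9, 89.6 and 101 CPM in Control and at 85.8, 83.6 and 87.5 CPM in IL-33. All IL-33 values lay below all Control values, and the fall was 10.9% (log2 fold change -0.17 ± 0.04 SE, adjusted p = 0.0013, edgeR). Nop58 was at 73.8, 78.2 and 79.0 CPM in Control and at 70.6, 72.8 and 69.1 CPM in IL-33. The groups did not overlap by a narrow gap, and the fall of 8.0% had an adjusted p of 0.034 by edgeR's quasi-likelihood test. This call was lost in 9 of the 14 alternatives, namely DESeq2, limma-voom, upper quartile factors, no filter, the replicate block, and the omission of Control library 2 or 3 or of IL-33 library 1 or 3, with an adjusted p between 0.051 and 0.16.

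The methyltransferase of this complex, Fbl, went from 55.9 ± 1.78 to 51.8 ± 2.94 CPM (SD, n = 3 each) and did not pass (adjusted p = 0.13, edgeR). Rrp9, a protein particular to the snoRNP that acts in cutting the precursor, was at 23.1, 25.8 and 23.7 CPM in Control and at 28.5, 26.5 and 26.0 CPM in IL-33. All 3 IL-33 values were above the Control values, yet the difference did not pass (log2 fold change 0.16 ± 0.08 SE, adjusted p = 0.12, edgeR). Copies of Nop56 with a row held at most 66 counts beside 11644 of Nop56 itself.

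None of the 4 proteins of the box H/ACA snoRNPs, which form pseudouridine, passed the test by edgeR or by DESeq2, and at an unadjusted p under 0.05 (edgeR) the number was also 0. Dkc1, the pseudouridine synthase, was at 37.2, 37.2 and 35.7 CPM in Control and at 33.3, 33.5 and 34.1 CPM in IL-33. Its groups did not overlap (log2 fold change -0.13 ± 0.07 SE, adjusted p = 0.15, edgeR). Gar1 was at 16.3, 18.7 and 18.6 CPM in Control and at 15.5, 15.6 and 16.4 CPM in IL-33, and Nop10 at 24.5, 25.3 and 24.5 CPM and at 24.6, 23.0 and 21.4 CPM. The groups overlapped for both of these subunits, with an adjusted p of 0.17 and 0.36 (edgeR). Nhp2, the subunit with the highest level, was at 51.5, 46.2 and 46.0 CPM in Control and at 48.3, 50.7 and 45.1 CPM in IL-33. Its log2 fold change was 0.0025 with an interval from -0.11 to 0.12, which is the narrowest of these 4 genes.

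The levels of these subunits, which are found in 1 complex, can be set side by side only per length. Per kilobase of the principal transcript, Nhp2 was at 46.0 CPM in Control, Nop10 at 22.3, Gar1 at 14.1 and Dkc1 at 13.1. The order was the same with IL-33. Among the box C/D proteins the levels per kilobase in Control were close to each other for Nop56 (51.2 CPM), Fbl (46.7 CPM) and Nop58 (45.0 CPM) and lower for Rrp9 (15.3 CPM). These levels rest on 1 annotated transcript per gene, and the processed copies of Nhp2 and Fbl were not analysed here.

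In the RNA polymerase I group, the factor Ubtf, which binds the ribosomal DNA and keeps it open for transcription, fell, while the 3 subunits of the polymerase among the members did not pass the test. Ubtf was at 223, 233 and 230 CPM in Control and at 182, 191 and 176 CPM in IL-33. The groups lay far apart for their spread, and the means of 228 ± 4.92 and 183 ± 7.42 CPM (SD, n = 3 each) gave a fall of 19.8% (log2 fold change -0.32 ± 0.03 SE, adjusted p = 2.4e-13, edgeR). It was the member with the largest fall in this fit, and its call held under all 14 alternatives.

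Polr1a, the largest subunit of the polymerase, was at 35.6, 36.5 and 36.8 CPM in Control and at 39.0, 32.2 and 30.6 CPM in IL-33. The IL-33 libraries lay on both sides of the Control libraries (adjusted p = 0.32, edgeR), and without IL-33 replicate 1, the library above them, the log2 fold change was -0.21 with an adjusted p of 0.036. Polr1c, a subunit that RNA polymerase III also uses, was at 40.4, 42.2 and 42.1 CPM in Control and at 46.0, 44.8 and 43.7 CPM in IL-33. The groups did not overlap and the difference did not pass (log2 fold change 0.11 ± 0.06 SE, adjusted p = 0.18, edgeR). Polr1b, with means of 17.8 ± 0.524 and 17.6 ± 0.576 CPM, and the initiation factor Rrn3, with means of 60.2 ± 3.75 and 63.2 ± 3.26 CPM (SD, n = 3 each), did not pass either, and their groups overlapped. The intervals of the log2 fold change were -0.20 to 0.17 for Polr1b and -0.03 to 0.17 for Rrn3. Per kilobase, Polr1c was at 31.6 CPM in Control, and Polr1a and Polr1b were at 3.94 and 4.45 CPM. Polr1d, another subunit and no member, was higher with IL-33, from 127 ± 3.57 to 144 ± 0.848 CPM (SD, n = 3 each, log2 fold change 0.19 ± 0.04 SE, adjusted p = 3.8e-05, edgeR), and is named after its values were seen.

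**Figure D3:**
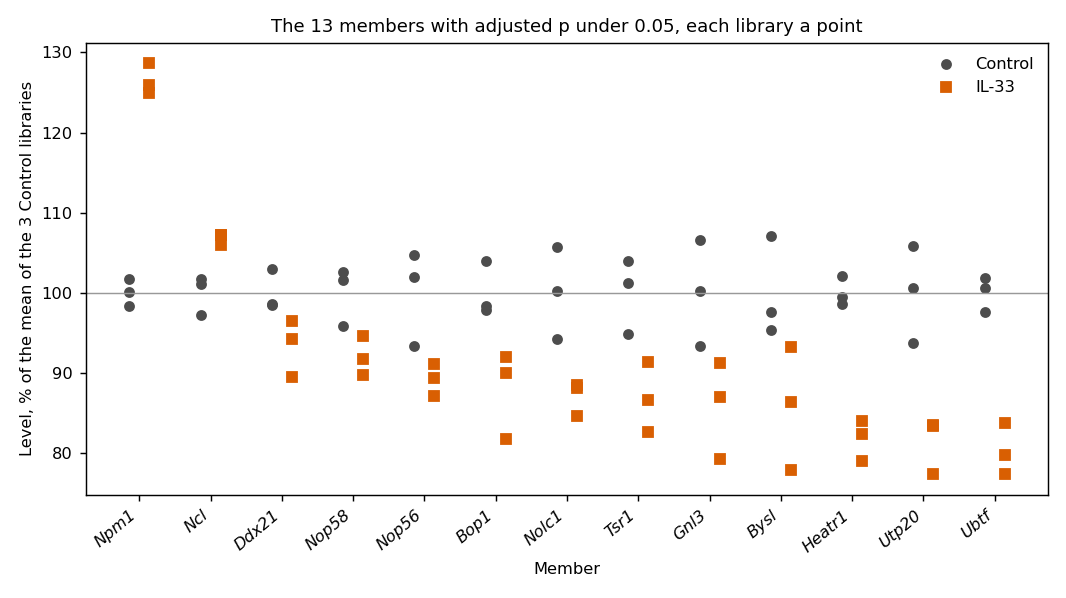
The level in each library, in percent of the mean of the 3 Control libraries (y axis), is plotted for the 13 members with an adjusted p under 0.05 (x axis), with Control libraries as grey circles and IL-33 libraries as orange squares. The 3 IL-33 libraries lie above all Control libraries for Npm1 and Ncl and below all of them for the other 11. The gap is wide for Npm1, Ubtf and Heatr1 and narrow for Gnl3, Nop58, Bysl, Ddx21 and Nop56.

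The small subunit assembly factors had 4 lower members, none higher and 4 that passed in neither direction, with the same counts at an unadjusted p under 0.05 (edgeR). The lower share was 50% of only 8 genes, beside 13.9% of all genes tested and 19% at 10 CPM or more. The lower ones included Utp20 and Heatr1, large proteins of the processome that forms on the growing precursor. Heatr1 was at 73.5, 76.1 and 74.1 CPM in Control and at 62.6, 61.4 and 58.9 CPM in IL-33. This was a fall of 18.3% without overlap (log2 fold change -0.29 ± 0.05 SE, adjusted p = 2.6e-07, edgeR). Utp20 was at 47.7, 45.3 and 42.2 CPM in Control and at 37.6, 37.6 and 34.8 CPM in IL-33. It fell by 18.7% without overlap (log2 fold change -0.30 ± 0.06 SE, adjusted p = 6.5e-05, edgeR), and both calls held under all 14 alternatives.

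Bysl, which acts late in the making of the small subunit, was at 28.7, 25.5 and 26.1 CPM in Control and at 25.0, 23.1 and 20.8 CPM in IL-33. The groups did not overlap by a narrow gap (log2 fold change -0.22 ± 0.08 SE, adjusted p = 0.025, edgeR). The call was lost under DESeq2 (adjusted p = 0.091) and on leaving out the library Control 1 (0.16), IL-33 2 (0.054) or IL-33 3 (0.19). Exons of Bysl share 361 bases with exons of Ccnd3 on the opposite strand, Ccnd3 had 31611 counts beside 3186 of Bysl, and the sources do not say whether counting used the strand, so reads of the pair may not be told apart. Ccnd3 itself had a log2 fold change of -0.03 ± 0.03 SE.

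Tsr1, a GTPase-like factor of the same late step, went from 36.4 ± 1.69 to 31.6 ± 1.61 CPM (SD, n = 3 each), a fall of 13.1% with an adjusted p of 0.015 (edgeR). Its call was lost under DESeq2 (adjusted p = 0.052) and on leaving out the library Control 2 (0.051), Control 3 (0.086) or IL-33 2 (0.098). It shares 32.3% of its exonic bases with Srr on the opposite strand, which had 823 counts beside 4358 of Tsr1. Nob1, the endonuclease of the final cut, had means of 32.7 ± 2.62 and 35.7 ± 2.57 CPM (SD, n = 3 each) and passed in 1 of the 14 alternatives, without Control replicate 1 (log2 fold change 0.19, adjusted p = 0.043, edgeR). Wdr43, the member of this role with the highest mean, was at 69.1, 66.9 and 68.3 CPM in Control and at 65.4, 72.1 and 69.4 CPM in IL-33, so that its groups overlapped. Wdr43, Nop14 and Rrp12 had log2 fold changes between -0.07 and 0.02, overlapping groups and an adjusted p of 0.56 to 0.996 (edgeR), and the widest interval, that of Rrp12, ran from -0.23 to 0.09.

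Of the 8 large subunit assembly factors tested, 1 (12.5%) was lower, beside 13.9% of all genes tested and 19% at 10 CPM or more. Bop1, which forms a complex with Pes1 and Wdr12, was at 59.6, 56.3 and 56.1 CPM in Control and at 52.7, 51.6 and 46.8 CPM in IL-33. The groups did not overlap (log2 fold change -0.19 ± 0.05 SE, adjusted p = 0.0050, edgeR), and the call was lost without IL-33 replicate 3 (adjusted p = 0.092). Its partner Pes1 was at 57.5, 56.7 and 59.7 CPM in Control and at 57.8, 59.0 and 62.3 CPM in IL-33. The Pes1 libraries overlapped, and the interval of its log2 fold change ran from -0.06 to 0.14. Wdr12, the other partner, had means of 14.3 ± 0.631 and 14.4 ± 0.61 CPM (SD, n = 3 each) and an interval from -0.19 to 0.22. Whether Bop1 and its partners differed in their response was not tested.

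Nop2, a methyltransferase of ribosomal RNA, was at 38.4, 42.4 and 39.8 CPM in Control and at 37.1, 38.9 and 38.3 CPM in IL-33. Grwd1, a chaperone of a ribosomal protein, was at 10.3, 13.7 and 13.8 CPM in Control and at 11.2, 9.92 and 12.5 CPM in IL-33. Both had overlapping groups and did not pass (adjusted p = 0.39 and 0.31, edgeR), and Grwd1, the member with the lowest level, had the widest interval of all members, from -0.40 to 0.07. Nop16, Rrs1 and Noc2l had log2 fold changes between -0.04 and 0.0044, with overlapping groups. Their adjusted p ran from 0.76 to 0.98 (edgeR). Noc2l shares 20.9% of its exonic bases with Samd11 on the opposite strand, which had 387 counts beside 7307 of Noc2l.

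Summed over each role, the scaffold, chaperone and helicase group rose from 1639 ± 22.7 to 1810 ± 9.87 CPM (SD, n = 3 each), a log2 ratio of 0.14, and this sum was carried by Npm1 and Ncl. The other 5 sums were lower with IL-33. The RNA polymerase I group went from 384 ± 2.38 to 343 ± 7.18 CPM (log2 ratio -0.16), small subunit assembly from 352 ± 5.17 to 324 ± 4.32 CPM (-0.12), box C/D from 253 ± 3.65 to 235 ± 3.95 CPM (-0.11), box H/ACA from 127 ± 2.36 to 121 ± 3.09 CPM (-0.08) and large subunit assembly from 281 ± 2.56 to 272 ± 2.37 CPM (-0.05). In each of the 6 roles the Control and IL-33 libraries did not overlap. Among single genes, 38.9% of all tested and 47.9% at 10 CPM or more did not overlap either. No such share was computed for sums of genes. The direction of the RNA polymerase I sum rested on Ubtf, without which the other 4 members summed to 156 ± 2.56 CPM in Control and to 160 ± 5.27 CPM in IL-33, with overlap. Left without Dkc1 and Bop1, the box H/ACA and the large subunit sums were lower on average but overlapped between the groups. All 35 members together summed to 3036 ± 21.9 CPM in Control and to 3104 ± 12.5 CPM in IL-33 (log2 ratio 0.03). Without Ncl and Npm1 the sum was 1731 ± 16.6 and 1599 ± 15.9 CPM (log2 ratio -0.11), so that the direction of the whole sum rested on these 2 genes. These sums are given with no test.

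**Figure D4:**
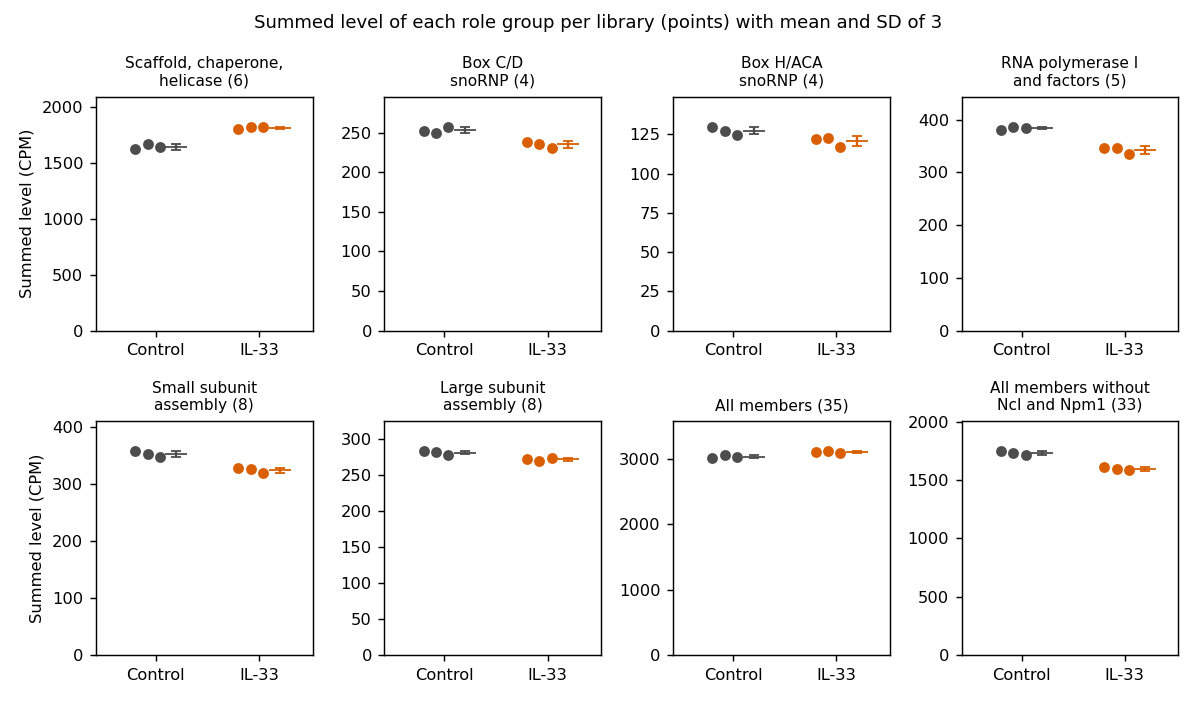
Summed level (y axis, CPM from 0) of the members of each role, of all members and of all members without Ncl and Npm1, for Control (grey) and IL-33 (orange), with a point per library and the mean ± SD of 3 beside them; the number of genes is in parentheses. The sum of the scaffold group is higher with IL-33 (1639 against 1810 CPM), the other 5 roles are lower, and the sum of all members is lower once Ncl and Npm1 are left out (1731 against 1599 CPM).

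Several members also carry snoRNA genes in their introns. By the annotation, 7 of the 35 members (20%) held 21 snoRNA genes, namely Ncl, Gnl3, Nop56, Nop58, Dkc1, Wdr43 and Tsr1, against 218 of 11933 protein-coding genes tested (1.83%). Of these 7 members, Ncl was higher and Gnl3, Nop56, Nop58 and Tsr1 were lower, and the 7 had a median log2 fold change of -0.13. Of the 218 hosts among the protein-coding genes, 40 were higher and 39 were lower, with a median of -0.01. These values describe the host transcripts, and the levels of the snoRNAs themselves were not compared.

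The lower members had longer annotated transcripts (median 3.63 kb, 1.71 to 8.82 kb) than those that passed in neither direction (median 2.32 kb), and higher levels (median 67.8 against 34.7 CPM). Their standard errors were 0.03 to 0.08 on the log2 scale, against 0.05 to 0.12. The largest log2 fold change among members that passed in neither direction was 0.17 in size, and Nop56, Nop58, Ddx21 and Ncl were called with smaller changes than that.

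The remaining genes of the pathway were measured with a list of 127 other ribosome biogenesis genes, of which 125 were tested. Here 21 were lower and 9 were higher with IL-33, with a median log2 fold change of -0.04. The lower share of 16.8% and the higher share of 7.2% stand beside backgrounds of 13.9% and 13.6% over all genes and of 19% and 18% at 10 CPM or more. Without IL-33 replicate 2 the number of lower genes was 13, and under DESeq2 and without Control replicate 1 the number of higher genes was 5. By role, 8 small subunit factors were lower and 3 higher of 44, 9 large subunit factors lower and 4 higher of 50, 2 exosome and processing genes lower and 1 higher of 13, 1 polymerase I gene lower and 1 higher of 10, and 1 snoRNP assembly gene lower and none higher of 8. For the small and the large subunit factors, the lower shares were 18.2% and 18%, near the 19% at 10 CPM or more. Their higher shares were 6.82% and 8%, beside 18% there.

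The 8 genes of this list with the largest called changes were all lower. Mdn1, the large ATPase that strips factors from the large subunit precursor, went from 92.4 ± 4.77 to 73.6 ± 2.70 CPM (SD, n = 3 each; log2 fold change -0.33 ± 0.04 SE, adjusted p = 7.0e-10, edgeR). Its groups did not overlap. Ttf1, the factor that ends transcription by RNA polymerase I, went from 46.6 ± 1.72 to 39.9 ± 1.38 CPM (log2 fold change -0.22, adjusted p = 0.0024, edgeR). The other 6 were Exosc1 (log2 fold change -0.36) of the exosome, Rcl1 (-0.34), Pelp1 (-0.31), Ppan (-0.30), Pwp2 (-0.30) and Utp25 (-0.29), with an adjusted p between 7.5e-04 and 0.0090 (edgeR). Exosc1 lost its call under DESeq2 (adjusted p = 0.051) and without the library Control 1 (0.11) or IL-33 2 (0.16), Rcl1 without Control replicate 3 (0.11), and Utp25 without Control replicate 2 (0.11) or IL-33 replicate 2 (0.077).

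The ribosomal proteins, which the members assemble into ribosomes, gave other counts. Of 83 cytosolic ribosomal protein genes tested, 27 were higher and 2 were lower. The shares were 32.5% higher and 2.41% lower. The backgrounds were 13.6% and 13.9% over all genes and 18% and 19% at 10 CPM or more. The median level was 583 CPM for these genes and 47.5 CPM for the genes at 10 CPM or more. The part of level in these shares was not tested. The median log2 fold change was 0.04, and ran from 0.026 without Control replicate 1 to 0.066 without IL-33 replicate 3. The largest called increases were those of Rps2, from 1411 ± 26.3 to 1895 ± 57.5 CPM (log2 fold change 0.43, adjusted p = 1.6e-31, edgeR), and Rpl3, from 1714 ± 40.1 to 1954 ± 40.2 CPM (0.19, adjusted p = 3.1e-12, edgeR; SD, n = 3 each). The 2 lower genes were Rps27 (-0.16) and its near copy Rps27rt (-0.15), whose Control and IL-33 libraries overlapped, and Rps27 lost its call without Control replicate 2 and Rps27rt under DESeq2 and on omission of the library Control 2, Control 3 or IL-33 3. The number of higher genes was 17 without IL-33 replicate 2. Genes of this family have many processed copies, and how reads that match several of them were counted is not given in the sources used here.

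Of 77 mitochondrial ribosomal protein genes tested, 7 (9.09%) were higher and 1 (1.2987%) was lower. Both shares lay below the backgrounds of 13.6% higher and 13.9% lower over all genes. At 10 CPM or more the backgrounds were 18% and 19%. The part of level in these shares was not tested either. The median log2 fold change was 0.02, and ran from -0.0032 without Control replicate 1 to 0.036 without Control replicate 2. Under DESeq2 and without IL-33 replicate 2, the number higher was 4. Mrpl45 went from 30.5 ± 1.27 to 39.3 ± 1.90 CPM (log2 fold change 0.37, adjusted p = 3.5e-06, edgeR) and Mrps35 from 18.3 ± 1.12 to 23.0 ± 1.16 CPM (0.32, adjusted p = 0.0018, edgeR; SD, n = 3 each). The lower gene was Mrpl20 (-0.18, adjusted p = 0.034, edgeR), which was lost under DESeq2 and on omission of library 2 or 3 of either group. No test compared these lists with the members, and their counts stand side by side as descriptions.

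**Figure D5:**
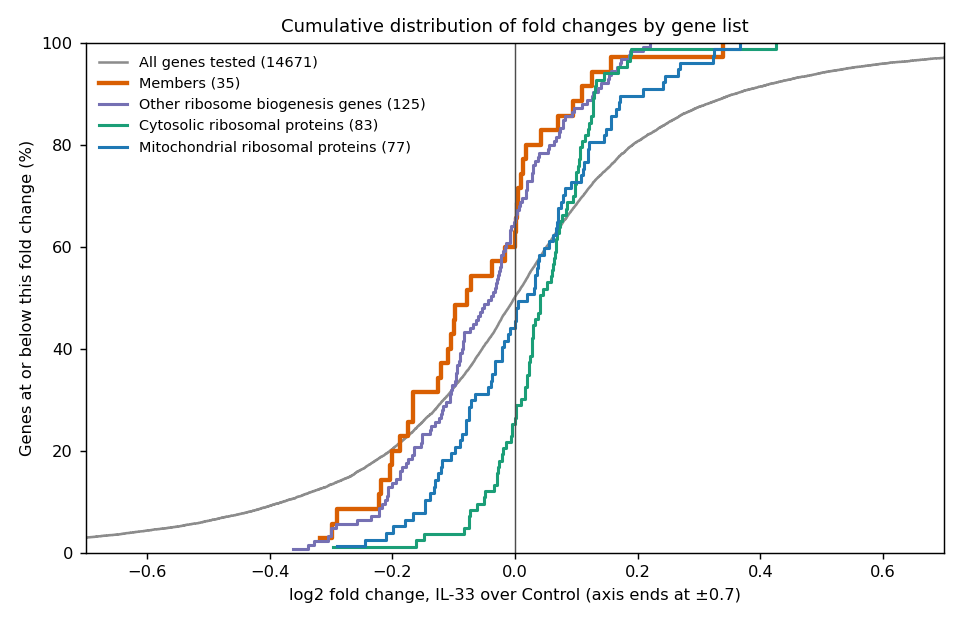
The share of genes at or below a given log2 fold change of IL-33 over Control (y axis, percent) is plotted against that fold change (x axis) for the 35 members, the 125 other ribosome biogenesis genes, 83 cytosolic and 77 mitochondrial ribosomal protein genes and all 14671 genes tested. The median is -0.08 for the members, -0.04 for the other ribosome biogenesis genes, 0.04 for cytosolic and 0.02 for mitochondrial ribosomal proteins, and all of these lists are narrower than the curve of all genes. The lists also have higher median levels (23.0 to 583 CPM) than all genes tested (18.4 CPM), and the part of level in their width was not tested.

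Myc, the transcription factor known to act on many of these promoters, was at 53.7, 57.3 and 55.3 CPM in Control and at 52.9, 52.1 and 54.4 CPM in IL-33. The groups overlapped, and the difference did not pass (log2 fold change -0.06, interval -0.17 to 0.05, adjusted p = 0.44, edgeR).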

How the data were processed

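RNA from 3 Control and 3 IL-33 libraries of DNT cells, grouped by their titles, was compared. The authors deposited whole-number counts of reads per Ensembl gene for each library, without normalization, and a column with the mean of normalized counts, which was not used. The submitters' processing notes name Bowtie 0.12.2 and the build mm8. No counting program or use of strand is given in the sources used here, and the labels and the study's methods name different library kits. Identifiers were matched to symbols for 26072 of the 26128 genes.

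Genes were filtered with filterByExpr of edgeR (minimum count of 10, minimum total of 15), scaled by TMM and tested with edgeR's quasi-likelihood test (robust, two-sided, no covariates), with Benjamini-Hochberg adjustment over the 14671 genes tested. A gene was called at an adjusted p under 0.05, or also at a change of at least 1.5-fold, the thresholds of the study. CPM are counts per 1000000 of the scaled total of tested genes. Intervals cover 95%. The tools were edgeR 4.0.16, DESeq2 1.42.0 and limma 3.58.1 in R 4.3.3. The procedure was tested on simulated counts. Transcript lengths are those of the APPRIS principal transcript in GENCODE M21 (the longest where several are listed). The lengths listed for Ncl and Wdr12 are long, and their levels per kilobase are not given.

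The members and lists were chosen with earlier results of these data known. Values per library are given for the 3 members with the largest absolute log2 fold change in each role and for its most abundant member. Named among other ribosome biogenesis genes are the 8 largest called changes, and among ribosomal proteins the 2 largest in each direction, at a mean of at least 1 CPM. Kinases and binding proteins named like ribosomal proteins were left out. Alternatives were DESeq2, limma-voom, other scalings and filters, the replicate block and each library left out.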

Additional observations from a re-analysis of the deposited data

How the results depend on the processing

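The results were recomputed under 14 alternatives. Of the 13 called members, 7 (Ncl, Npm1, Nolc1, Nop56, Ubtf, Heatr1 and Utp20) kept their direction and call in all of them, and over all 35 members 437 of 490 values kept both. A call was lost in 25 and gained in 2, and the sign changed in 26, all for members not called. The sign of Npm3 (-0.0069), Nhp2 (-0.015), Nop16 (-0.013), Wdr12 (-0.0048) and Noc2l (-0.015) changed with library totals, and that of Nop14 with limma-voom (0.00065), upper quartile factors (0.010) and no filter (8.9e-05). When 1 library was left out, the log2 fold change ran from -0.040 to 0.067 for Npm3, -0.036 to 0.058 for Nhp2, -0.041 to 0.013 for Polr1b, -0.012 to 0.058 for Wdr43, -0.028 to 0.029 for Nop14, -0.044 to 0.043 for Nop16, -0.023 to 0.044 for Wdr12 and -0.025 to 0.038 for Noc2l.

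Counts and medians moved as follows, and the cause was not tested. DESeq2 called 7 members lower, 5 other ribosome biogenesis genes higher, 1 cytosolic ribosomal protein gene lower, and 4 mitochondrial ones higher, with Mrpl20, lower by edgeR's test, no longer called. Of the mitochondrial genes, limma-voom, no filter and the stricter filter called 2 lower. Library totals called 4 lower in each ribosomal protein list and gave medians of -0.018 for all genes, -0.096 for the members and -0.057 for the other ribosome biogenesis genes, with log2 ratios of the summed CPM of 0.13 for the scaffold group and -0.066 for large subunit assembly. In an alternative chosen after seeing the data, each role sum was taken without the member that moved it most in its direction. A smaller difference in CPM between the groups thus followed from the choice itself. The log2 ratios were 0.034 for RNA polymerase I without Ubtf (the sign changed) and 0.029 for the scaffold group without Npm1. They were -0.070 for box C/D without Nop56, -0.077 for small subunit assembly without Heatr1 and -0.015 for large subunit assembly without Bop1. Box H/ACA without Dkc1 had means of 90.5 CPM in Control and 86.9 CPM in IL-33. Upper quartile factors gave medians of 0.010 for all genes and -0.028 for the other ribosome biogenesis genes. When 1 library was left out, 7 to 10 members were lower and their median ran from -0.0880 to -0.052, beside -0.0017 to 0.00285 for all genes. Over the whole table, 1675 to 1834 genes were then lower and 1691 to 1830 higher, against 2037 and 1999 with all libraries kept. Of the other ribosome biogenesis genes, 5 to 8 were higher and 13 to 18 lower, with a median from -0.065 to -0.033. Of the cytosolic ribosomal protein genes, 17 to 29 were higher and 0 to 6 lower, and of the mitochondrial ones 4 to 6 and 0 to 2.

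The deviations of libraries with the same replicate number correlated at 0.054, -0.060 and 0.047 over 8839 genes. These values show no strong pairing, but they cannot tell whether libraries with the same number shared a source. With a replicate block, 2 members were higher and 10 lower. Grwd1, the least abundant member, had the widest interval. The part of depth in this was not tested.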
